A study of Homo sapiens and Mus musculus with 100 samples.

Results

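The acyl-CoA dehydrogenases and the electron transfer flavoproteins were followed through 10 genes, ACADVL, ACADM, ACADS, ACADSB, IVD, GCDH, ACAD9, ETFA, ETFB and ETFDH. They were chosen by symbol, by a rule that uses no measured value, though with earlier results of these data known. All 10 were found among the 28035 genes of the human tables and, under their mouse symbols, among the 24940 genes of the mouse tables, and all 10 passed the filter on low values in each of the 8 tables.

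These enzymes are flavoproteins of the mitochondrion: each dehydrogenase holds FAD, a cofactor made from vitamin B2 (riboflavin), and takes electrons from an acyl-CoA as it forms a double bond. The electrons pass to the electron transfer flavoprotein, a soluble pair of the subunits ETFA and ETFB, and from there to ETFDH, a membrane enzyme that hands them to ubiquinone of the respiratory chain. ACADVL, ACADM and ACADS act on very long, medium and short fatty acid chains. ACADSB and IVD act in the breakdown of isoleucine and leucine, GCDH acts in the breakdown of lysine and tryptophan, and ACAD9 is best known as an assembly factor of respiratory complex I. Inherited loss of ETFA, ETFB or ETFDH gives multiple acyl-CoA dehydrogenase deficiency, which in some patients responds to riboflavin. Only messenger RNA was measured, so flavin loading, protein and enzyme activity are not covered by these values.

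Messenger RNA was read, per the labels' protocol at transcript 3′ ends, in 98 libraries of 32 groups, spread over 8 tables. The headers of the liver columns do not show that protocol. HepG2, a human liver tumour line, was grown without vitamin B2 (B2_minus) or as control (Cont) and taken at days 3, 6, 9 and 12. Caco2, a human colon tumour line, was compared in the same way at day 9. Further HepG2 experiments at day 12 set B2_minus against Cont with and without AhRinh, an inhibitor of the aryl hydrocarbon receptor AhR, with and without IDO_TDOinh, an inhibitor labelled for the tryptophan-degrading enzymes IDO and TDO, and with AhR_gRNA or Cont_gRNA. Another set HepG2 with Kyn (kynurenine, a tryptophan product that AhR can bind) against the solvent DMSO, each with and without AhRinh, with no deprivation label. Mouse hepatocytes, all carrying the AhR_flox allele, were labelled B2_minus or Cont and Ad_Cre or Ad_Cont, and mouse livers were labelled B2_minus or Control; both carry the label 4 weeks. Each cell group had 3 libraries, and each liver group had 4 columns that name the diet but no animal, 10 samples being labelled and 2 of them not analysed here. The headers of the gRNA table, for both guides, carry the name AhR_KO, KO being short for knockout. AhRinh is given as 10 uM in the headers of the table with deprivation, and without a dose in the Kyn table. The labels do not give the Kyn dose, which compounds the inhibitors are, the guide's target site, the floxed exon, whether guide lines were single clones, or the animals' age and sex. Nothing states that replicates were separate cultures, so a p-value here measures spread among libraries that may be only technical.

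Levels are TPM, the authors' values per transcript length and library total, deposited as such. Depth recovered from the values was 4049600 to 19644000 reads per library. CYP1A1, a standard AhR target, averaged 23.8 ± 0.707 TPM in B2_minus HepG2 at day 12 and 3.57 ± 0.648 TPM in Cont (SD, n = 3 each). With AhR_gRNA it averaged 1.74 TPM in B2_minus and 1.88 TPM in Cont, whereas AHR mRNA itself stood at 4.71 TPM with AhR_gRNA and 5.14 TPM with Cont_gRNA in Cont cells (adjusted p = 0.641, limma); a 3′ read outside an edited site does not report the edit. The 8 hepatocyte markers checked, ALB among them, were each at 1 TPM or more in HepG2, and their summed level at day 12 was 7109 to 7465 TPM in B2_minus and 25197 to 26394 TPM in Cont. Cholangiocyte markers summed to 1243 to 1280 TPM in B2_minus and 253 to 266 TPM in Cont at that day (6 of 8 at 1 TPM or more, KRT7 at 0.0247 TPM in B2_minus and 0 in Cont), and endothelial markers to at most 1.6 TPM. The stellate list summed to 138 to 146 TPM in B2_minus and 33.0 to 38.9 TPM in Cont, with 1 of 8 markers at 1 TPM or more. These shifts moved with the day-12 differences described here, and their part in them was not tested. In bulk RNA, fewer cells of a type and less RNA per cell cannot be told apart. In the AhRinh table, libraries with the inhibitor carry another folder and date in the headers than those without. Their recovered depth was 12577700 to 19428000 reads, against 5891600 to 8976000 without inhibitor. The inhibitor's effect and these differences cannot be told apart there. Cont with AhRinh replicate 3 stood apart from the other libraries of its group.

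AhR binds DNA with its partner ARNT at sites holding the core GCGTG. Promoter sequence (250 bases before to 50 after a start, RefSeq, GRCh38.p14) was used for 8 of the 10 human genes. ETFDH had no promoter entry, and ACADSB was left out of the search by choice. The motif counts therefore do not cover ACADSB, the member that differed with Kyn without inhibitor. The longer motif TNGCGTG, searched on both strands, occurred in 3 of these 8, namely ACADM, IVD and an alternative start of ETFB, against 6.69% of 27305 genes. The core GCGTG, which the longer motif contains, occurred in 6 of 8, against 40.6% of genes. Of the nuclear receptor motifs searched on both strands, AGGTCA occurred in 1 of 8 (GCDH), against 16.5% of genes, and AGGTCANAGGTCA and TCAAGGTCA in 0 of 8, against 0.0293% and 0.432%. GCGCANGCGC, a palindrome of the NRF1 type, occurred in 2 of 8 (ACAD9 and ETFB), against 6.98%. A match describes letters in this window and is not a binding site. The AhR core holds a cytosine followed by a guanine. The median count of this pair was 14 over 35116 windows. The windows with the longer motif had 30 (ACADM), 23 (IVD) and 8 (ETFB). The others had 30 (ACAD9), 30 (ACADS), 29 (ETFA), 6 and 26 (ACADVL), 15 and 15 (GCDH) and 22 (ETFB). The shares were not matched for this pair, and enrichment of a motif was not tested. The windows of ACADM and IVD, which hold the longer motif, are shown. ETFB, which holds it at an alternative start, is not shown. ACADM, IVD and ETFB each differed in some comparison with deprivation or Kyn, and a link of motif and difference was not tested. ETFA is shown as a member that differed in HepG2 with no core in its window. Capitals mark the core GCGTG, read as CACGC where it lies on the other strand.

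ACADM promoter, chr1:75724459-75724758, forward strand: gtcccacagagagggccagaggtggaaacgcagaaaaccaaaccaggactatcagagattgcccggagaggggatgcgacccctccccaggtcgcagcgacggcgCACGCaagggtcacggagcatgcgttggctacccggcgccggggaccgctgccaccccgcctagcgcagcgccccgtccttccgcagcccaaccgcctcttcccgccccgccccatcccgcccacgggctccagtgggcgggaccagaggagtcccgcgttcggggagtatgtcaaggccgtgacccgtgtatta
IVD promoter, chr15:40405545-40405844, forward strand: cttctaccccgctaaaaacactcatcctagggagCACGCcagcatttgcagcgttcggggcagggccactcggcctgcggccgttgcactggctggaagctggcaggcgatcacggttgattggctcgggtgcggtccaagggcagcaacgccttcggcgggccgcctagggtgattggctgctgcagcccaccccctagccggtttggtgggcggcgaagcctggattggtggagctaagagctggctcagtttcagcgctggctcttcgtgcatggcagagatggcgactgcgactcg
ETFA promoter, chr15:76311420-76311719, reverse strand: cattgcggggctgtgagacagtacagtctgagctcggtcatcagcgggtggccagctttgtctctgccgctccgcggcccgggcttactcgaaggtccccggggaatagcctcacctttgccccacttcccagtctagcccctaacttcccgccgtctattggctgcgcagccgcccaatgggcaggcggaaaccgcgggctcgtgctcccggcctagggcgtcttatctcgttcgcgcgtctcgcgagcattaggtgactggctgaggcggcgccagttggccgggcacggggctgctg

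In ACADM and IVD the longer motif lay on the opposite strand, beginning 145 and 216 bases before the RefSeq start on which each window is set. The ACADM window lies inside the gene as the deposited tables and GENCODE annotate it, after that annotation's own start.

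By position in hg38 (GENCODE annotation), ACADM spans 75724347 to 75787575 of chromosome 1, ACAD9 128879596 to 128916067 of chromosome 3, ETFDH 158672125 to 158709623 of chromosome 4, ACADSB 123008979 to 123058311 of chromosome 10 and ACADS 120725735 to 120740008 of chromosome 12. IVD spans 40405795 to 40435947 and ETFA 76215355 to 76311472 of chromosome 15, ACADVL 7217125 to 7225273 of chromosome 17, and GCDH 12891026 to 12914207 and ETFB 51345169 to 51366418 of chromosome 19. All are protein-coding genes, and those 2 pairs on a shared chromosome are not neighbours. The 3′ ends of ACAD9, GCDH, ETFA and ETFB overlap a gene on the other strand (KIAA1257, SYCE2, TMEM266 and AC008750.4). The sources do not state whether counting used strand, so reads of these 4 members and of the overlapping genes may be mixed.

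In HepG2 at day 3, none of the 10 genes passed the test between B2_minus and Cont, where 4.74% of the 12488 genes tested did (limma, a linear model across all genes, on log2(TPM + 1), adjusted p under 0.05). Under an unadjusted p of 0.05 stood 3 of the 10, and limma's voom on recovered reads called 1. ACADSB had 17.7, 17.6 and 17.8 TPM in the 3 B2_minus libraries, against 19.9, 20.8 and 21.6 TPM in Cont. Its groups did not overlap, but the log2 fold change of -0.22 ± 0.07 (SE) did not pass (adjusted p = 0.07). The median log2 fold change was -0.08 over the 10 genes and 0.02 over all genes tested.

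By day 6, 3 of the 10 genes rose and none fell, against 33.0% of all genes called. IVD, the leucine pathway dehydrogenase, had 12.8, 12.2 and 13.5 TPM in B2_minus libraries, against 11.0, 9.05 and 10.7 TPM in Cont, with a log2 fold change of 0.30 ± 0.07 (SE, adjusted p = 0.00162). ETFB, the smaller subunit of the electron transfer flavoprotein, rose by 0.24 (adjusted p = 0.0149), and ACADVL rose by 0.21 (adjusted p = 0.0439). The ETFB call was lost without B2_minus replicate 1 or Cont replicate 3 (adjusted p 0.0984 to 0.114). The ACADVL call was lost without any 1 of B2_minus replicates 1, 2 or 3 or Cont replicates 1 or 2 (adjusted p 0.0549 to 0.221).

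At day 9, IVD and ETFA rose and ACADSB fell, while 49.1% of all genes were called (1 higher and 1 lower after quantile normalization and 4 higher and 0 lower with voom). IVD had 10.7, 10.6 and 11.1 TPM in B2_minus, against 7.63, 9.03 and 8.65 TPM in Cont (0.33 ± 0.07, adjusted p = 0.000398). ETFA had 206, 200.3 and 231 TPM in B2_minus, against 188, 168 and 179.9 TPM in Cont (0.24 ± 0.06, adjusted p = 0.00112), and after quantile normalization this call was lost (adjusted p = 0.0532). Neither gene's groups overlapped. ACADSB had 18.4, 17.7 and 20.8 TPM in B2_minus, against 22.6, 22.2 and 21.0 TPM in Cont, a log2 fold change of -0.20 (adjusted p = 0.0184) that was lost without any 1 of B2_minus replicates 1 or 2 or Cont replicates 1 or 2 (adjusted p 0.0508 to 0.099).

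Day 12 gave 9 calls, more than any earlier day. Of the 10 genes, 4 rose (IVD, ACAD9, ETFA, ETFB) and 5 fell (ACADVL, ACADM, ACADSB, GCDH, ETFDH) in B2_minus cells, where 52.4% of all genes were called, and the groups of 8 of the 10 did not overlap, as was so for 60.2% of all genes. The median log2 fold change was -0.15 over the 10 genes and 0.10 over all genes tested. Both subunits of the matrix carrier, ETFA and ETFB, were among the higher genes, its membrane acceptor ETFDH was among the lower, and the dehydrogenases were found in both. The split was 4 higher and 5 lower after quantile normalization and 4 higher and 3 lower with voom.

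Among the fatty acid dehydrogenases, ACADVL had 27.0, 23.3 and 24.7 TPM in B2_minus, against 32.4, 32.8 and 30.2 TPM in Cont, with a log2 fold change of -0.34 ± 0.08 (SE, adjusted p = 0.00104). ACADM, the medium-chain enzyme, had 30.9, 32.5 and 33.7 TPM in B2_minus, against 35.2, 37.9 and 36.9 TPM in Cont. Its groups did not overlap, and the difference was small (-0.17 ± 0.06, adjusted p = 0.0133). That call was lost without B2_minus replicate 1 or Cont replicate 2 (adjusted p 0.0579 to 0.0706), and with voom on recovered reads (-0.04, adjusted p = 0.622). ACADS, the short-chain enzyme, had 7.83, 8.71 and 7.48 TPM in B2_minus and 11.0, 8.28 and 7.43 TPM in Cont, overlapping ranges with no call (adjusted p = 0.372).

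Of the amino acid dehydrogenases, IVD had 10.5, 10.1 and 9.58 TPM in B2_minus, against 5.92, 5.89 and 6.05 TPM in Cont. Every B2_minus library lay above every Cont library, the means being 10.1 ± 0.456 and 5.95 ± 0.0860 TPM (SD, n = 3 each), and the log2 fold change was 0.67 ± 0.07 (SE, adjusted p = 2.7e-08). ACADSB had 16.1, 17.9 and 16.1 TPM in B2_minus, against 20.4, 20.0 and 17.0 TPM in Cont. These ranges overlapped at Cont replicate 3. The log2 fold change of -0.18 ± 0.07 passed (adjusted p = 0.0275), but not without any 1 of B2_minus replicates 1 or 3 or Cont replicates 1 or 2 (adjusted p 0.0932 to 0.137) and not with voom (-0.05, adjusted p = 0.504). GCDH, the glutaryl-CoA enzyme, had 2.27, 1.53 and 1.49 TPM in B2_minus, against 2.56, 2.29 and 3.44 TPM in Cont, a log2 fold change of -0.45 ± 0.13 (adjusted p = 0.00636) that was lost without Cont replicate 3 (adjusted p = 0.057). ACAD9, the complex I assembly factor, had 3.55, 3.45 and 2.74 TPM in B2_minus, against 1.67, 1.79 and 1.58 TPM in Cont (0.66 ± 0.11, adjusted p = 3.68e-05). Its lowest B2_minus library exceeded its highest Cont library.

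For the electron carriers, ETFA had 215, 202 and 219 TPM in B2_minus, against 155, 158 and 143 TPM in Cont, with means of 212 ± 9.05 and 152 ± 8.16 TPM (SD, n = 3 each) and a log2 fold change of 0.48 ± 0.06 (SE, adjusted p = 2.53e-07). ETFB had 497, 489 and 518 TPM in B2_minus, against 303, 325 and 329 TPM in Cont (0.65 ± 0.07, adjusted p = 1.55e-07). Both subunits were higher in every B2_minus library. ETFDH, which takes electrons from this pair, went the other way, with 2.99, 2.37 and 2.53 TPM in B2_minus, against 4.75, 4.67 and 4.42 TPM in Cont and no overlap (-0.63 ± 0.16, adjusted p = 0.00155).

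**Figure D1:**
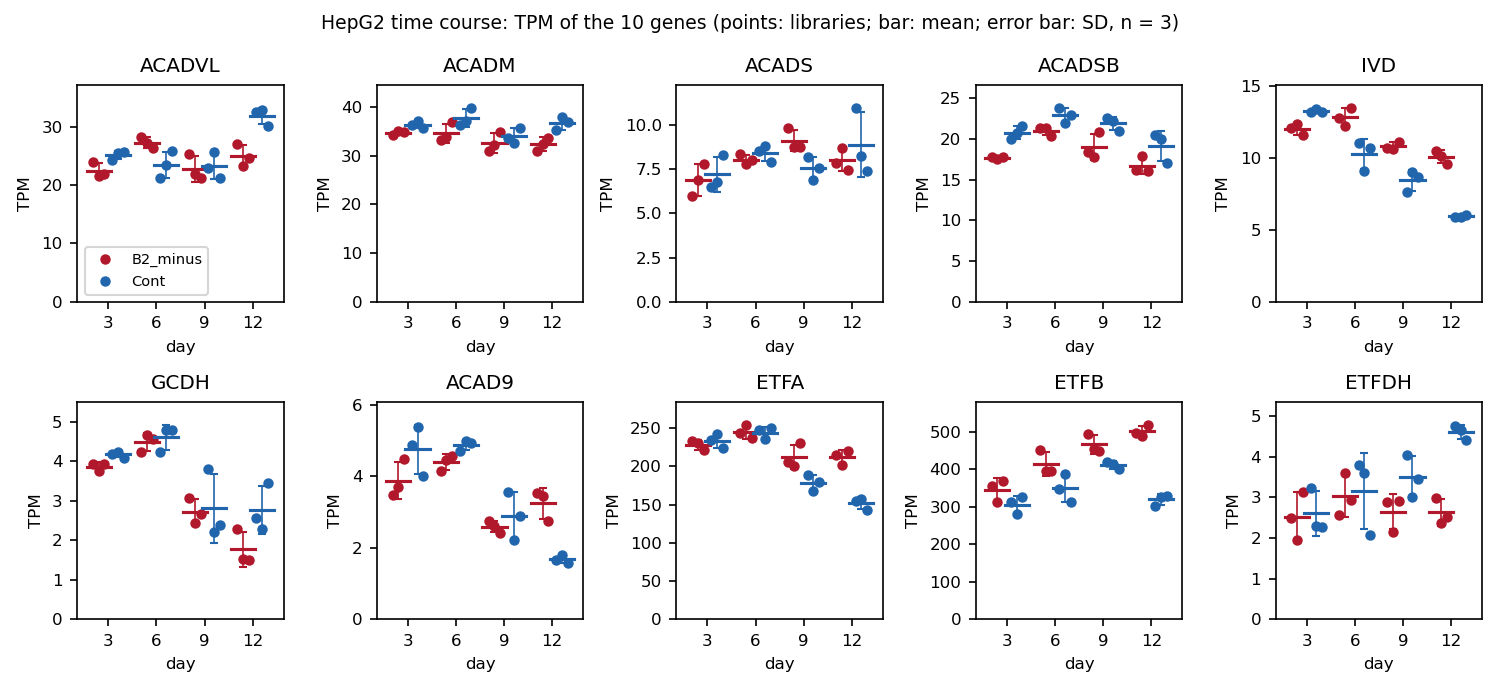
TPM of the 10 genes (y axis) in HepG2 at days 3, 6, 9 and 12 (x axis), with each library as a point, B2_minus left of Cont at each day, the mean as a bar and the SD as an error bar (n = 3). IVD, ACAD9 and ETFA of Cont are lower at day 12 than at day 3, and at day 12 they lie below B2_minus. ETFB of B2_minus climbs to 497, 489 and 518 TPM, and ETFDH of Cont climbs to 4.75, 4.67 and 4.42 TPM at day 12.

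The change of the deprivation effect between day 3 and day 12 was tested as an interaction, in which 37.7% of all genes were called. It passed for 5 of the 10 genes: ACAD9 (0.89 with adjusted p = 0.000116), IVD (0.80 with adjusted p = 8.42e-07), ETFA (0.51 with adjusted p = 2.7e-05), ETFB (0.47 with adjusted p = 0.00108) and ETFDH (-0.60 with adjusted p = 0.0363), with 4 higher and 2 lower after quantile normalization and 4 higher and 0 lower with voom. The ETFDH interaction was lost without any 1 of day 12 B2_minus replicates 2 or 3, day 12 Cont replicates 1 or 2, day 3 B2_minus replicates 1 or 3 or day 3 Cont replicates 2 or 3 (adjusted p 0.0577 to 0.108). In Cont cells at day 12 against day 3, where 66.9% of all genes were called, IVD fell by 1.04, ACAD9 fell by 1.10, ETFA fell by 0.62 and GCDH fell by 0.47 on the log2 scale, while ETFDH rose by 0.65, ACADVL by 0.33 and ACADS by 0.26 (adjusted p at most 0.0408). The ACADS call was lost without day 12 Cont replicate 1 or day 3 Cont replicates 1 or 2 (adjusted p 0.121 to 0.346). In B2_minus cells over the same days, where 49.7% of all genes were called, GCDH fell by 0.83, IVD fell by 0.23 and ETFB rose by 0.54 (adjusted p at most 0.0073). ACAD9 (-0.20), ETFA (-0.11) and ETFDH (0.05) did not pass there. ETFB in Cont did not pass either (0.06, adjusted p = 0.46). The median of all genes moved by -0.21 in Cont and -0.12 in B2_minus between these days, and by 0.00 and 0.01 after quantile normalization, under which ETFA in Cont stood at -0.38, IVD at -0.80 and GCDH at -0.28 (adjusted p = 0.0672 for GCDH). Members called were 5 higher and 3 lower in Cont and 3 higher and 1 lower in B2_minus under that scaling, and with voom 2 higher and 5 lower in Cont and 2 higher and 2 lower in B2_minus.

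Genes that work beside these enzymes were counted by list at day 12. Of all 12488 genes tested there, 4247 rose and 2296 fell. Of 18 beta-oxidation partners tested, 8 rose and 5 fell in B2_minus (median -0.02), among them CPT1A (2.25), the gatekeeper of mitochondrial fatty acid entry, HADHB (1.02) of the trifunctional protein and ACSL3 (-0.44), an acyl-CoA synthetase. Of 18 branched-chain amino acid, lysine and tryptophan breakdown partners, 10 rose and 3 fell (median 0.28), with HSD17B10 (1.34), which follows ACADSB in isoleucine breakdown, and AUH (-0.68), a later step of leucine breakdown. Among 8 other donors to or helpers of the electron transfer flavoprotein, 2 rose and 3 fell, with TMEM126B (0.91) and NDUFAF1 (0.45), which work with ACAD9 in complex I assembly, and SARDH (-0.57) and ETFRF1 (-0.53), a donor to and a regulator of the electron transfer flavoprotein. Tricarboxylic acid cycle and housekeeping genes gave 12 higher and 1 lower of 19 (median 0.29). Of 10 transcription regulators of beta-oxidation, 1 rose and 3 fell, RXRA (-0.65) and PPARA (-0.23) among the lower. The related family genes ACAD8 (0.49) and ACAD11 (0.35) rose. Values in parentheses are log2 fold changes. At day 3, of 18 beta-oxidation partners 2 rose and 0 fell, and of 18 amino acid partners 0 rose and 1 fell. All genes at day 3 gave 342 higher and 250 lower.

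Likeness of pattern was measured over the 8 group means of the time course as Pearson's r, among 4672 genes with a mean of at least 10 TPM. The closest gene to IVD was PSMB3, a proteasome subunit (r = 0.995), to ETFA MESD (0.994), to ACAD9 PRPF6 (0.975), to ACADSB GOLPH3 (0.976), to ETFB UGCG (0.975) and to ETFDH ARGLU1 (0.983). Between members, r was 0.92 for IVD with ETFA and for ACAD9 with ETFA, and -0.88 for IVD with ETFDH. The means share libraries and depth, and 8 points describe these groups only.

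Deprivation of HepG2 was measured at day 12 in 3 further experiments, the B2_minus and Cont groups without modulator of the AhRinh, IDO_TDOinh and gRNA tables (Cont_gRNA in the last). The tables were normalized separately, so log2 fold changes are set side by side and were not tested across tables. All genes called were 61.5%, 67.9% and 60.7% of those tested in these 3. Of the 10 genes, 3 rose and 1 fell in the AhRinh table, 5 rose and 3 fell in the IDO_TDOinh table, and 1 rose and 2 fell in the gRNA table, while the groups did not overlap for 6, 7 and 6 of the 10, against 68.6%, 70.6% and 64.4% of all genes. The median of all genes was itself above 0, at 0.23, 0.30 and 0.20 in these tables and 0.10 in the time course, against 0.03, 0.02, 0.02 and 0.00 after quantile normalization and 0.35, 0.44, 0.36 and 0.26 with voom. The median of the 10 genes was -0.02, 0.15 and 0.04. The split of members differed with the scaling. After quantile normalization it was 0 higher and 5 lower in the AhRinh table, 2 higher and 4 lower in the IDO_TDOinh table and 0 higher and 4 lower in the gRNA table, and with voom 3 higher and 1 lower in the AhRinh table, 6 higher and 1 lower in the IDO_TDOinh table and 4 higher and 2 lower in the gRNA table. The hepatocyte marker sum was 5504 to 5707 TPM in B2_minus and 24722 to 26893 TPM in Cont of the AhRinh table, and 6255 to 6534 TPM in B2_minus and 24304 to 24842 TPM in Cont of the gRNA table. The cholangiocyte sum was 669.6 to 703 TPM in B2_minus and 141 to 154 TPM in Cont of the gRNA table (4 to 6 of 8 markers at 1 TPM or more). Their part in the member differences was not tested.

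ACADSB was the member that fell in all 4 experiments, by 0.18, 0.69, 0.34 and 0.37 in the time course, AhRinh, IDO_TDOinh and gRNA tables. Its libraries without inhibitor in the AhRinh table had 12.7, 13.0 and 13.8 TPM in B2_minus, against 23.7, 20.9 and 21.1 TPM in Cont (-0.69 ± 0.08, adjusted p = 1.26e-05). In the IDO_TDOinh table it had 14.5, 15.2 and 16.2 TPM in B2_minus, against 17.9, 20.2 and 20.9 TPM in Cont (adjusted p = 0.000798). In the gRNA table it had 16.4, 15.2 and 14.2 TPM in B2_minus, against 21.0, 19.5 and 19.4 TPM in Cont (adjusted p = 0.000398). The groups did not overlap in any of these 3 comparisons, and each passed whichever 1 library was left out and after quantile normalization (-0.92, -0.63 and -0.56).

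ETFA rose in all 4 experiments (0.48, 0.24, 0.62 and 0.30, adjusted p at most 0.00382). In the AhRinh table it had 169.7, 174 and 165 TPM in B2_minus, against 149.6, 134 and 145 TPM in Cont, in the IDO_TDOinh table it had 140.3, 157 and 156 TPM in B2_minus, against 90.3, 112 and 92.7 TPM in Cont, and in the gRNA table it had 159, 146 and 152 TPM in B2_minus, against 122, 124 and 125 TPM in Cont. Libraries of the groups did not overlap in any of the 4. Beside the medians of all genes these rises were small in the AhRinh and gRNA tables, where quantile normalization ended the call (0.14 with adjusted p = 0.082, and 0.16 with adjusted p = 0.0701). IVD rose in 3 of the 4 (0.67, 0.30, 0.72 and 0.23) and did not pass in the gRNA table (adjusted p = 0.0614), though it did without Cont Cont_gRNA replicate 1 (adjusted p = 0.0234). In the IDO_TDOinh table IVD had 8.75, 8.53 and 8.93 TPM in B2_minus, against 4.88, 4.38 and 5.57 TPM in Cont (adjusted p = 2.95e-05). In the AhRinh table its call was lost without Cont replicates 2 or 3 (adjusted p 0.0566 to 0.0671) and after quantile normalization (0.05).

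ETFDH stood lower in B2_minus in all 4 (-0.63, -0.15, -0.28 and -0.44) and passed in 2, the time course and the gRNA table, where it had 2.48, 2.31 and 3.25 TPM in B2_minus, against 4.25, 3.96 and 3.72 TPM in Cont (adjusted p = 0.00883). In the IDO_TDOinh table ETFDH had 2.50, 3.10 and 2.18 TPM in B2_minus and 2.89, 4.09 and 3.08 TPM in Cont, which did not pass (adjusted p = 0.0622). ACAD9 gave 0.66, 0.14, 0.37 and 0.04 and passed in 2, the time course and the IDO_TDOinh table; after quantile normalization the last 3 values became -0.06, 0.08 and -0.14, so its sign turned in the AhRinh and gRNA tables.

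Of the other members, ACADVL, ETFB, GCDH and ACADM did not keep one direction, while ACADS stood below 0 in all 4. ACADVL gave -0.34, 0.39, 0.16 and 0.14; the call in the AhRinh table passed (adjusted p = 0.000335), and the one in the IDO_TDOinh table (adjusted p = 0.0408) turned to -0.10 after quantile normalization and was lost without any 1 of B2_minus replicate 2 or Cont replicates 1, 2 or 3 (adjusted p 0.0538 to 0.198). ETFB gave 0.65, 0.05, -0.12 and 0.05, so its rise in the time course was not seen in the other 3, where it fell by 0.12 in the IDO_TDOinh table (adjusted p = 0.0367, lost without B2_minus replicates 1 or 2 or Cont replicates 1 or 2 at adjusted p 0.0694 to 0.133). GCDH gave -0.45, -0.24, 0.35 and 0.17, its fall in the time course standing beside a rise in the IDO_TDOinh table (adjusted p = 0.039, lost without B2_minus replicates 1 or 2 or Cont replicates 2 or 3 at adjusted p 0.0705 to 0.193). ACADM gave -0.17, -0.08, 0.14 and -0.09 and ACADS -0.12, -0.29, -0.24 and -0.09, of which ACADS in the IDO_TDOinh table passed (adjusted p = 0.0227) but not without B2_minus replicates 1 or 2 or Cont replicates 1 or 2 (adjusted p 0.0648 to 0.0846). After quantile normalization ACADM was below 0 in all 4 (-0.29, -0.29, -0.14 and -0.29).

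**Figure D2:**
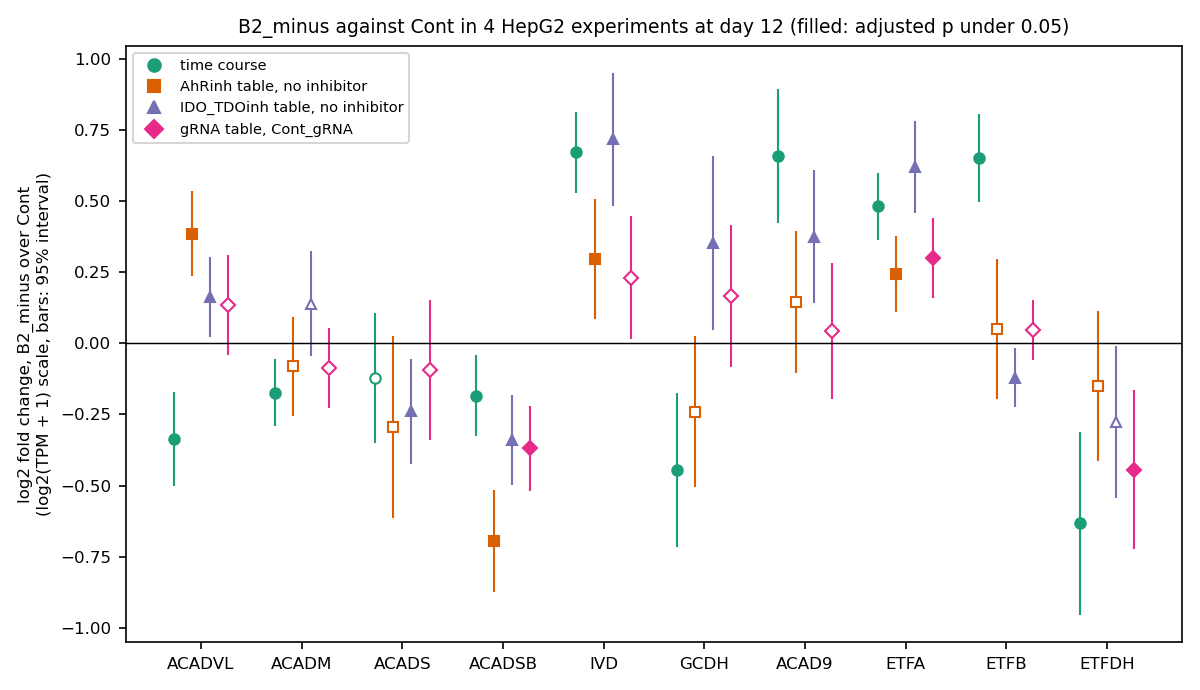
Log2 fold change of B2_minus over Cont (y axis, with 95% interval) for the 10 genes (x axis) in the 4 HepG2 experiments at day 12. Points are filled where the adjusted p is under 0.05. ACADSB lies below 0 and ETFA above 0 in all 4 experiments, while ACADVL, ETFB and GCDH lie on both sides.

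Partner lists were counted in the same 3 tables. All genes gave 5316 higher and 2015 lower of 11916 in the AhRinh table and 6147 and 1644 of 11470 in the IDO_TDOinh table. In the gRNA table they gave 5183 and 2033 of 11893. After quantile normalization all genes gave 3440 and 3183, 3507 and 3125, and 3387 and 3103 in this order. List counts after that scaling are not given here. Beta-oxidation partners gave 7 higher and 6 lower of 18 in the AhRinh table, 9 and 0 of 18 in the IDO_TDOinh table, and 8 and 6 of 18 in the gRNA table. Among the helpers, TMEM126B, FLAD1, the FAD synthase, and SLC25A32, a mitochondrial carrier linked to FAD import, rose in the IDO_TDOinh table (1.08, 0.73 and 0.83) and in the AhRinh table (1.21, 0.83 and 0.78), while SARDH fell by 0.72 and 0.98. In the gRNA table TMEM126B (1.09) and FLAD1 (0.76) rose too and SARDH fell by 0.97. Helpers called were 5 higher and 1 lower of 8 in each of the 3 tables. Tricarboxylic acid cycle and housekeeping genes gave 17 higher and 0 lower of 19 in the IDO_TDOinh table, and 10 and 1 of 19 in both others.

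With AhRinh present, 4 of the 10 genes rose and 2 fell in B2_minus against Cont, where 57.5% of all genes were called and the median of all genes was 0.24 (4 higher and 4 lower after quantile normalization). The hepatocyte marker sum there was 5948 to 6462 TPM in B2_minus and 23851 to 28367 TPM in Cont, and its part was not tested. ACADSB fell here too: it had 19.6, 17.6 and 18.4 TPM in B2_minus with AhRinh, against 24.3, 22.4 and 20.5 TPM in Cont with AhRinh (-0.26 ± 0.08, adjusted p = 0.0181). Those groups did not overlap, and the call was lost without B2_minus AhRinh replicate 2 or Cont AhRinh replicate 1 (adjusted p 0.0728 to 0.078). The interaction, the deprivation effect with AhRinh minus that without, was 0.44 ± 0.12 for ACADSB (adjusted p = 0.0168), and was lost without B2_minus AhRinh replicate 1 (adjusted p = 0.0518).

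Interactions passed for 3 other members of the 10, where 22.5% of all genes were called. ACAD9 had 3.64, 4.17 and 3.43 TPM in B2_minus with AhRinh, against 1.55, 1.98 and 1.70 TPM in Cont with AhRinh, while without inhibitor it had 4.47, 3.60 and 3.59 TPM in B2_minus and 3.83, 3.58 and 2.87 TPM in Cont (interaction 0.65 with adjusted p = 0.0123). GCDH had 4.39, 3.28 and 4.09 TPM in B2_minus with AhRinh, against 2.48, 1.94 and 2.88 TPM in Cont with AhRinh, and without inhibitor 3.59, 3.53 and 3.81 TPM in B2_minus and 4.99, 3.95 and 4.55 TPM in Cont (interaction 0.76 with adjusted p = 0.00643). For both genes the lowest group was Cont with AhRinh. ACADVL showed the reverse, its rise without inhibitor (0.39) standing beside 0.03 with it (interaction -0.35 with adjusted p = 0.0195, lost without B2_minus replicate 1, B2_minus AhRinh replicate 2 or Cont replicate 2 at adjusted p 0.052 to 0.054).

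ETFA rose by 0.46 and IVD by 0.59 under AhRinh (adjusted p = 3.34e-05 and 0.000202), ACAD9 by 0.79 and GCDH by 0.52 (adjusted p = 7.13e-05 and 0.00249), and ETFDH fell by 0.40 (adjusted p = 0.013, lost without B2_minus AhRinh replicate 3 at adjusted p = 0.0658). After quantile normalization ACADVL stood at -0.18 (adjusted p = 0.0455) in place of 0.03. Without Cont with AhRinh replicate 3, the library that stood apart, ACADS fell by 0.38 (adjusted p = 0.0108) and ETFB by 0.21 (adjusted p = 0.0265), the IVD interaction passed at 0.38 (adjusted p = 0.0298), and IVD fell by 0.24 in AhRinh against no inhibitor in Cont (adjusted p = 0.0466). AhRinh against no inhibitor gave 3 lower and none higher of the 10 in Cont, where 35.9% of all genes were called, and 2 higher and 2 lower in B2_minus, where 40.3% were called. ETFB fell in both, by 0.80 and 0.90, with 399, 329 and 261 TPM in Cont with AhRinh, against 549, 563 and 582 TPM in Cont without, and 295, 323 and 319 TPM in B2_minus with AhRinh, against 606, 597 and 552 TPM in B2_minus without. ACADSB rose by 0.47 with AhRinh in B2_minus (adjusted p = 0.000666), as did ETFA (0.29), and ACADVL fell by 0.25 (lost without B2_minus replicate 1 at adjusted p = 0.0511). GCDH and ACAD9 fell in Cont, by 0.68 and 0.69. These contrasts share groups with the ones before them and cannot be told apart from the folder and date in the headers.

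With IDO_TDOinh, none of the 10 genes passed between B2_minus and Cont (limma; 0 under an unadjusted p of 0.05 and 0 with voom), where 1.39% of all genes were called, and their log2 fold changes ran between -0.19 and 0.17. ETFA had 107, 105 and 103 TPM in B2_minus with IDO_TDOinh, against 101, 103 and 93.4 TPM in Cont with IDO_TDOinh. IVD had 5.18, 4.09 and 5.98 TPM in B2_minus with the inhibitor, against 4.94, 5.25 and 4.64 TPM in Cont with it, and ACADSB had 19.5, 18.6 and 18.1 TPM in B2_minus with it, against 19.8, 20.3 and 19.9 TPM in Cont with it. The ACADSB groups did not overlap, and those of ETFA and IVD did. In Cont, none of the 10 passed between IDO_TDOinh and no inhibitor either (limma; 0 under an unadjusted p of 0.05 and 0 with voom), where 0.00872% of all genes were called. The hepatocyte marker sum moved the same way, with 23958 to 24769 TPM in B2_minus with the inhibitor and 27388 to 28114 TPM in Cont with it, against 7443 to 7703 TPM in B2_minus and 26322 to 27714 TPM in Cont without it. Its part in these differences was not tested.

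The interaction passed for 4 of the 10 genes, against 53.7% of all genes: IVD (-0.69 with adjusted p = 0.00149), ETFA (-0.54 with adjusted p = 0.000589), GCDH (-0.55 with adjusted p = 0.0327) and ETFDH (0.45 with adjusted p = 0.0427), with 3 higher and 2 lower after quantile normalization. For ACADSB it did not pass (0.25 ± 0.11, 95% interval 0.02 to 0.47, adjusted p = 0.0586), though it did without Cont replicate 1 (adjusted p = 0.0123) or B2_minus replicate 3 (adjusted p = 0.0488). The GCDH interaction was lost without any 1 of B2_minus replicates 1 or 2, B2_minus IDO_TDOinh replicate 2, Cont replicate 2 or Cont IDO_TDOinh replicate 3 (adjusted p 0.0595 to 0.093), and the ETFDH interaction without any 1 of B2_minus replicates 1 or 3, B2_minus IDO_TDOinh replicates 1 or 2, Cont replicate 2 or Cont IDO_TDOinh replicates 1 or 3 (adjusted p 0.0716 to 0.121). In B2_minus cells, where 65.7% of all genes were called and the median of all genes was -0.26, ETFDH rose by 0.56 and ACADSB by 0.27 with IDO_TDOinh, while IVD fell by 0.69, GCDH by 0.53, ETFA by 0.52 and ACAD9 by 0.39 (adjusted p at most 0.00507). After quantile normalization 4 higher and 2 lower were called there, and ACADVL stood at 0.23 (adjusted p = 0.0043) in place of -0.01. These contrasts share the B2_minus libraries without inhibitor.

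With AhR_gRNA, 1 of the 10 genes rose and 2 fell in B2_minus against Cont, where 53.2% of all genes were called (1 higher and 4 lower after quantile normalization). ACADSB had 17.2, 16.6 and 18.4 TPM in B2_minus, against 19.8, 21.4 and 20.8 TPM in Cont (-0.24 ± 0.07, adjusted p = 0.0101). The fall beside that with Cont_gRNA gave an interaction of 0.13 ± 0.10 (95% interval -0.08 to 0.34, adjusted p = 0.417), so no difference between the guides was detected. ETFA had 167, 152 and 186 TPM in B2_minus with AhR_gRNA, against 157, 162 and 170.2 TPM in Cont with AhR_gRNA, overlapping ranges with no call (interaction -0.25 with adjusted p = 0.082). Without B2_minus AhR_gRNA replicate 3 that interaction passed (-0.33, adjusted p = 0.0198). ACADVL had 36.6, 31.1 and 34.4 TPM in B2_minus with AhR_gRNA, against 26.0, 21.1 and 24.1 TPM in Cont with it (0.50 ± 0.08, adjusted p = 0.000163). ETFB had 542, 515 and 479.8 TPM in B2_minus, against 592, 613 and 598 TPM in Cont (-0.23, adjusted p = 0.00128).

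The interaction passed for ACADVL (0.37 with adjusted p = 0.0489) and ETFB (-0.28 with adjusted p = 0.0163), against 14.4% of all genes (1 higher and 3 lower with voom). The ACADVL interaction was lost without any 1 of B2_minus AhR_gRNA replicates 1 or 3, B2_minus Cont_gRNA replicates 1, 2 or 3, Cont AhR_gRNA replicates 2 or 3 or Cont Cont_gRNA replicates 1 or 2 (adjusted p 0.052 to 0.111). Cont cells differed between the guides: 5 of the 10 genes rose and 2 fell with AhR_gRNA, where 36.7% of all genes were called. Higher with AhR_gRNA were ACAD9 (0.47), IVD (0.41), ETFA (0.40), GCDH (0.35) and ETFB (0.22), and lower were ETFDH (-0.47) and ACADVL (-0.44). The GCDH call was lost without Cont AhR_gRNA replicates 1 or 2 or Cont Cont_gRNA replicates 1 or 2 (adjusted p 0.0686 to 0.119). The hepatocyte marker sum in Cont was 19090 to 20192 TPM with AhR_gRNA and 24304 to 24842 TPM with Cont_gRNA, and its part in these differences was not tested. In B2_minus cells none of the 10 passed between the guides in limma (2 under an unadjusted p of 0.05, 1 with voom), where 12.0% of all genes were called.

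**Figure D3:**
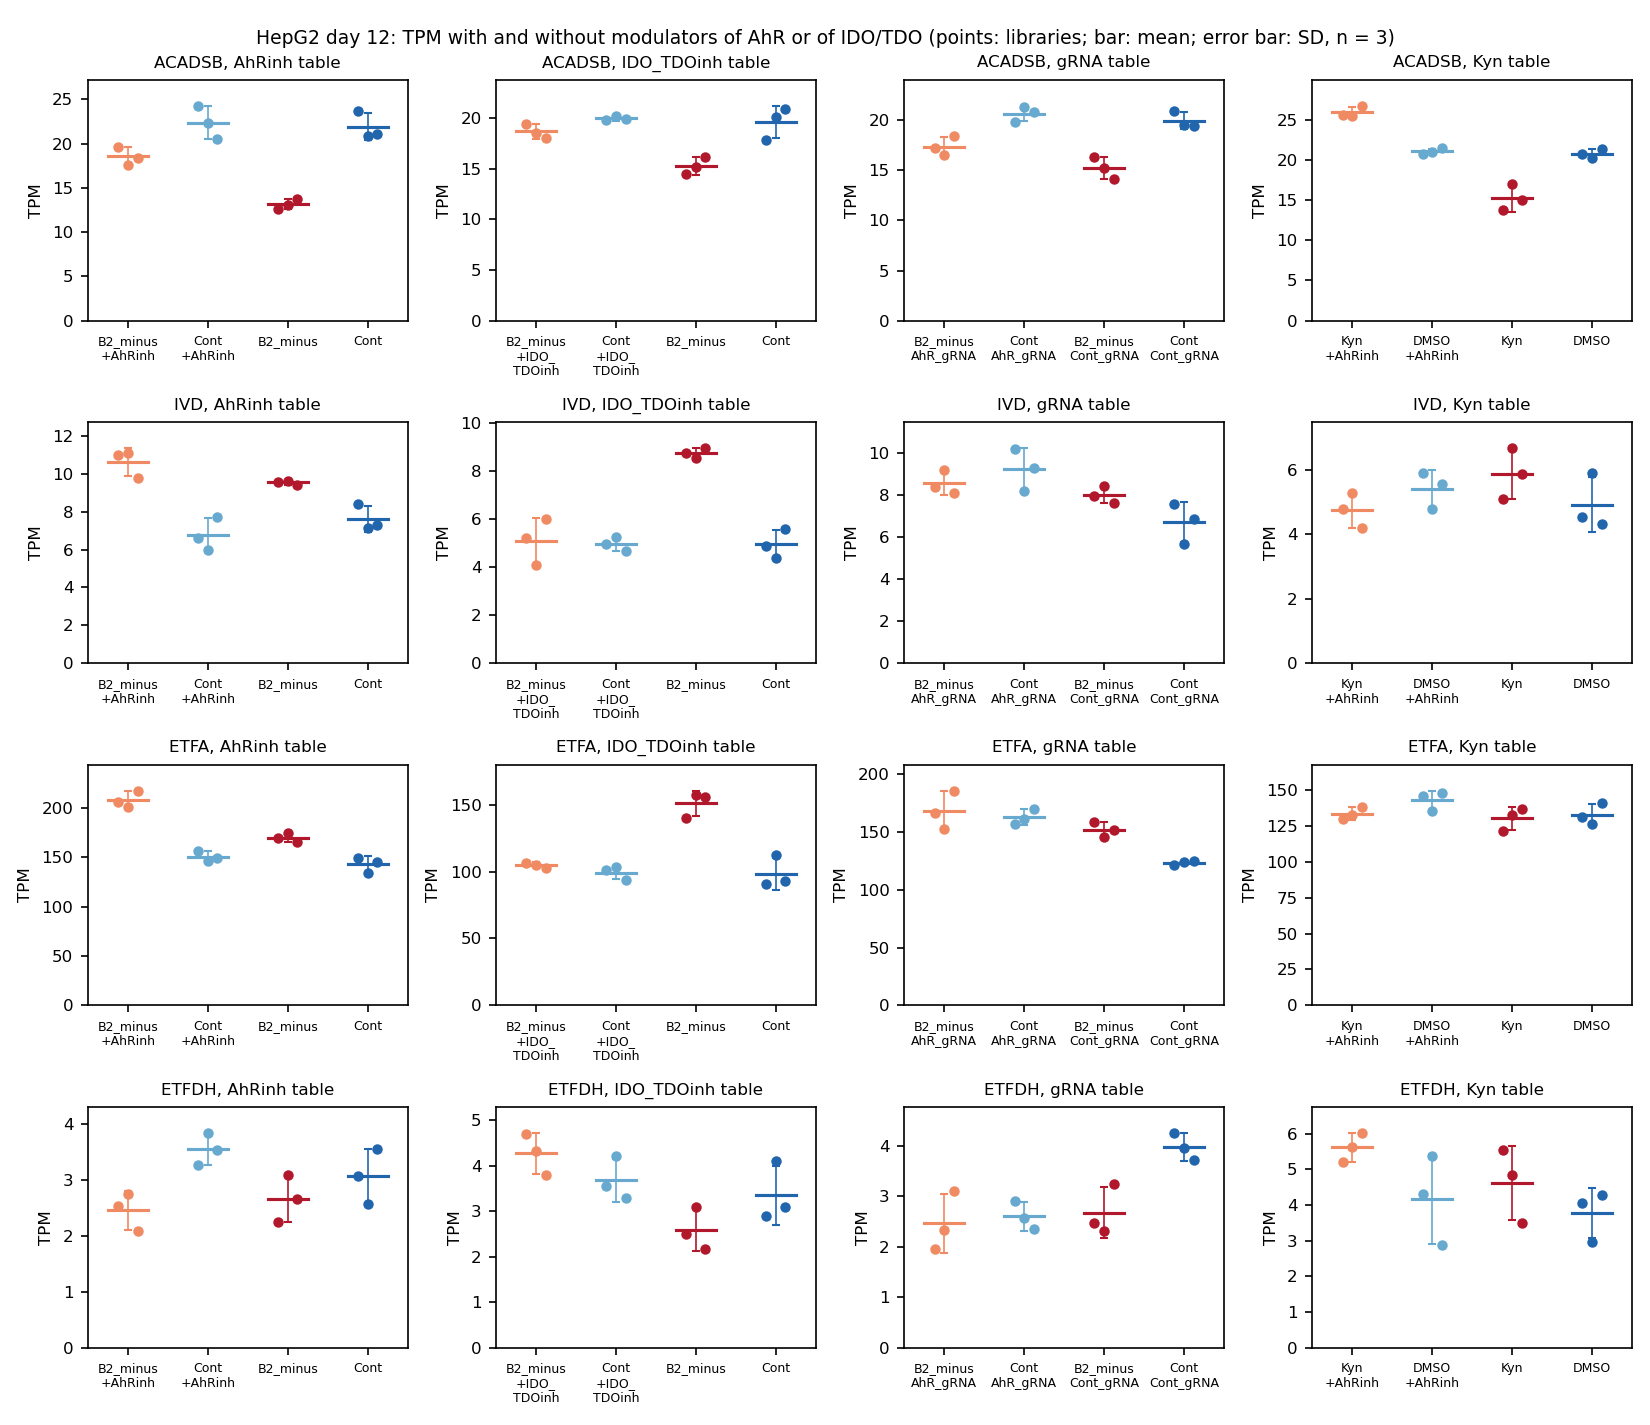
TPM (y axis) of ACADSB, IVD, ETFA and ETFDH (rows) per library in the 4 HepG2 tables with a modulator at day 12 (columns), each group as 3 points with its mean as a bar and SD as an error bar. In the IDO_TDOinh column the group B2_minus without inhibitor stands apart from the other groups for IVD and ETFA, and in the Kyn column ACADSB is lowest with Kyn alone and highest with Kyn and AhRinh.

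With Kyn and no inhibitor, 1 of the 10 genes fell and none rose, against 11.7% of all genes called. ACADSB, which acts on the branched short-chain acyl-CoA of isoleucine, had 13.7, 17.0 and 15.0 TPM with Kyn, against 20.8, 20.2 and 21.3 TPM with DMSO. The highest Kyn library lay below the lowest DMSO library, the means were 15.2 ± 1.64 and 20.8 ± 0.558 TPM (SD, n = 3 each), and the log2 fold change was -0.43 ± 0.07 (SE, adjusted p = 0.00224). The other 9 did not pass, ACADVL and ETFA among them (-0.17 and -0.03). CYP1A1 in the same libraries averaged 2.11 TPM with Kyn and 1.73 TPM with DMSO (adjusted p = 0.521). With AhRinh it averaged 2.38 TPM with Kyn and 1.06 TPM with DMSO (0.69, adjusted p = 0.0182), and in Kyn cells AhRinh against no inhibitor gave 0.10 (adjusted p = 0.713).

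With AhRinh present the sign of the ACADSB difference was the opposite one: 25.5, 25.5 and 26.7 TPM with Kyn, against 20.8, 21.0 and 21.4 TPM with DMSO (0.29 ± 0.07, adjusted p = 0.0254), where 10.8% of all genes were called. The groups did not overlap, yet the call was lost without any 1 library, that is without DMSO AhRinh replicates 1, 2 or 3 or Kyn AhRinh replicates 1, 2 or 3 (adjusted p 0.0513 to 0.0786). The interaction was 0.72 ± 0.11 (adjusted p = 0.00102), passed without each library in turn, and was the only one of the 10, against 8.94% of all genes. ACADM rose by 0.36 with Kyn under AhRinh (adjusted p = 0.0171), with 36.3, 38.8 and 36.4 TPM with Kyn, against 27.6, 28.1 and 30.4 TPM with DMSO; this call was lost without DMSO AhRinh replicates 1 or 2 or Kyn AhRinh replicate 2 (adjusted p 0.0565 to 0.0645). ETFB fell there, with 507, 496 and 461 TPM with Kyn, against 603, 633 and 596 TPM with DMSO (adjusted p = 0.0101).

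Between AhRinh and no inhibitor in DMSO cells, none of the 10 passed and 0% of the 11798 genes tested were called (limma; of the 10, 0 under an unadjusted p of 0.05; 0 of all genes with voom). In Kyn cells, where 21.9% of all genes were called, ACADSB rose by 0.74 with AhRinh (adjusted p = 1.71e-05), while ACAD9 fell by 0.52 and ETFB fell by 0.24 (adjusted p = 0.0485 and 0.0261). The ACAD9 call was lost without any 1 of Kyn replicates 1, 2 or 3 or Kyn AhRinh replicates 1 or 2 (adjusted p 0.0671 to 0.189), and the ETFB call without any 1 of Kyn replicates 2 or 3 or Kyn AhRinh replicates 2 or 3 (adjusted p 0.0521 to 0.109). After quantile normalization 2 higher and 0 lower were called, the median of all genes being -0.13 before it and 0.00 after. The hepatocyte marker sum was 15863 to 16823 TPM with Kyn and AhRinh, 12480 to 13084 TPM with DMSO and AhRinh, 13362 to 14275 TPM with Kyn and 12703 to 13463 TPM with DMSO. Its part in these differences was not tested. Of the partner lists under Kyn without inhibitor, 1 of 18 beta-oxidation partners rose and 0 fell, and 2 of 16 amino acid partners rose and 0 fell, among them PCCB (0.39) of propionyl-CoA carboxylase and HIBCH (0.32) of valine breakdown. The regulator ETFRF1 (0.79) rose and ETFBKMT (-0.82), the lysine methyltransferase of ETFB, fell. Of all 11798 genes tested under Kyn without inhibitor, 721 rose and 654 fell.

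In Caco2 cells at day 9, 6 of the 10 genes fell in B2_minus and none rose, where 33.7% of all genes were called in either direction and 19.5% fell. The groups of those 6 did not overlap, against 47.6% of all genes, and the median log2 fold change was -0.47 over the 10 and -0.07 over all genes. ACADM had 5.40, 6.05 and 4.80 TPM in B2_minus, against 9.58, 10.9 and 10.8 TPM in Cont (-0.84 ± 0.11, SE, adjusted p = 0.000267). ACADS had 3.36, 3.68 and 2.99 TPM in B2_minus, against 7.45, 5.40 and 7.20 TPM in Cont (-0.81 ± 0.13, adjusted p = 0.00113). The third fatty acid enzyme, ACADVL, did not pass, with 14.9, 13.0 and 16.0 TPM in B2_minus and 14.5, 16.8 and 18.4 TPM in Cont (-0.16, adjusted p = 0.271).

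All 3 amino acid dehydrogenases fell in Caco2. IVD had 3.21, 3.65 and 3.94 TPM in B2_minus, against 6.16, 6.07 and 6.73 TPM in Cont (-0.67 ± 0.11, adjusted p = 0.00123), the opposite sign to that in HepG2, a difference between lines that was not tested. ACADSB had 1.52, 1.88 and 1.61 TPM in B2_minus, against 2.43, 2.62 and 2.48 TPM in Cont (-0.40 ± 0.13, adjusted p = 0.0336), and GCDH had 1.24, 1.21 and 0.979 TPM in B2_minus, against 2.65, 1.74 and 2.08 TPM in Cont (-0.55 ± 0.15, adjusted p = 0.0176). The ACADSB call was lost without any 1 of B2_minus replicates 1 or 3 or Cont replicates 1, 2 or 3 (adjusted p 0.0535 to 0.102) and after quantile normalization (-0.29, adjusted p = 0.0891). The GCDH call was lost without B2_minus replicate 3 or Cont replicate 1 (adjusted p 0.0593 to 0.0604) and rests on 14 to 41 reads per library. ACAD9 did not pass (-0.39 ± 0.16, adjusted p = 0.0814), though it did without Cont replicate 1 (adjusted p = 0.0392).

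The electron carriers split by subunit in Caco2. ETFB had 87.9, 90.1 and 72.3 TPM in B2_minus, against 128, 137 and 124 TPM in Cont (-0.64 ± 0.08, adjusted p = 0.000267), while ETFA, its partner, had 147, 150.2 and 152 TPM in B2_minus and 151, 159.5 and 156 TPM in Cont and did not pass (-0.05 ± 0.05, 95% interval -0.16 to 0.06). ETFDH rested on 26 to 61 reads per library and ranged over 3.40, 1.54 and 1.92 TPM in B2_minus and 1.41, 2.92 and 1.41 TPM in Cont (adjusted p = 0.631), so no difference was detected. Of all 11888 genes tested in Caco2, 1695 rose and 2316 fell. Of 18 beta-oxidation partners 1 rose and 7 fell (median -0.23), with ECI1 (-0.64), ECHS1 (-0.57) and DECR1 (-0.53), enzymes that handle enoyl-CoA, among the lower. Of 17 amino acid partners 0 rose and 4 fell, with MCCC2 (-0.56) of leucine breakdown among the lower. The family genes ACAD11 (-0.74) and ACAD8 (-0.59) fell, as did 7 of 19 tricarboxylic acid cycle and housekeeping genes, SUCLG1 (-0.73) among them, while 1 rose. Of 10 regulators 1 rose and 2 fell, HNF4A (-0.46) and RXRA (-0.31). The enterocyte marker sum was 89.6 to 95.8 TPM in B2_minus and 147 to 155 TPM in Cont (5 to 6 and 5 to 7 of 8 at 1 TPM or more), with FABP2, a defining marker, at 0.182 TPM in B2_minus and 0.112 TPM in Cont, and the hepatocyte list, which this line also expresses, summed to 1386 to 1570 TPM in B2_minus and 2517 to 2654 TPM in Cont. Their part in these differences was not tested.

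**Figure D4:**
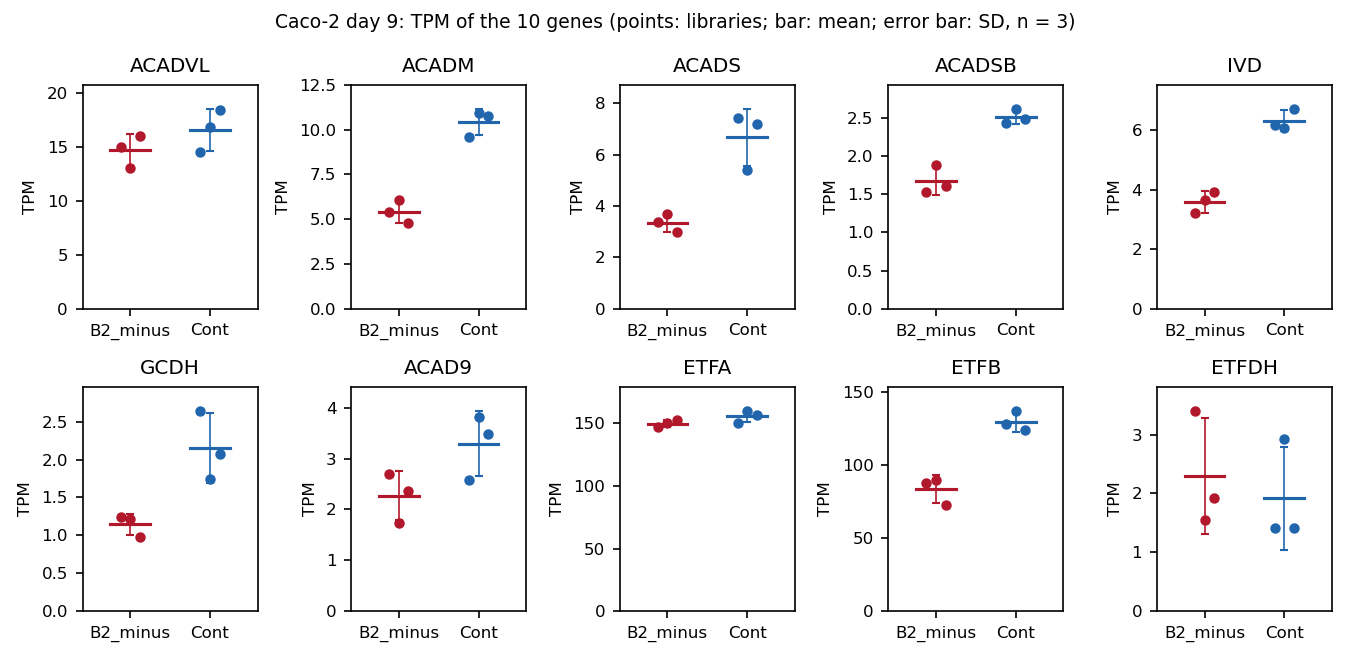
TPM (y axis) of the 10 genes in Caco2 at day 9, B2_minus left of Cont, with each library as a point, the mean as a bar and the SD as an error bar (n = 3). ACADM, ACADS, ACADSB, IVD, GCDH and ETFB are lower in every B2_minus library, while ETFA lies at 147, 150.2 and 152 TPM in B2_minus and 151, 159.5 and 156 TPM in Cont.

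In mouse hepatocytes with Ad_Cont, 2 of the 10 genes rose in B2_minus and none fell, where 9.78% of all genes were called. Acadm had 88.0, 82.3 and 69.2 TPM in B2_minus, against 55.4, 58.2 and 62.9 TPM in Cont, with means of 79.9 ± 9.63 and 58.9 ± 3.79 TPM (SD, n = 3 each) and a log2 fold change of 0.43 ± 0.09 (SE, adjusted p = 0.00856). No B2_minus library overlapped the Cont libraries. Acadsb had 17.5, 19.5 and 21.2 TPM in B2_minus, against 14.8, 16.0 and 16.2 TPM in Cont (0.29 ± 0.09, adjusted p = 0.0476), the opposite sign to that in HepG2 (a difference that was not tested), and the call was lost without any 1 of B2_minus Ad_Cont replicates 2 or 3 or Cont Ad_Cont replicates 1, 2 or 3 (adjusted p 0.0813 to 0.155). The median over the 10 was 0.09 and over all genes 0.00.

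With Ad_Cre, none of the 10 passed in limma (0 under an unadjusted p of 0.05, 0 with voom), where 0.329% of all genes were called. Acadm had 65.0, 66.0 and 77.4 TPM in B2_minus, against 65.1, 60.6 and 59.9 TPM in Cont (0.16, adjusted p = 0.589), and Acadsb 18.0, 17.6 and 18.0 TPM in B2_minus, against 18.5, 18.1 and 16.2 TPM in Cont (0.02). The difference between Ad_Cre and Ad_Cont in the deprivation effect did not pass for any of the 10 (limma; 1 under an unadjusted p of 0.05, 0 with voom; 0.247% of all genes called), with -0.27 ± 0.13 for Acadm (95% interval -0.54 to 0.01) and -0.27 ± 0.12 for Acadsb (95% interval -0.53 to -0.01). Between Ad_Cre and Ad_Cont none of the 10 passed in Cont (0.0247% of all genes called) or in B2_minus (1.03%). Under an unadjusted p of 0.05 in limma stood 0 and 1 of them, and voom called 0 in both. Ahr itself averaged 7.10 TPM with Ad_Cre and 10.2 TPM with Ad_Cont in B2_minus (adjusted p = 0.0225) and 7.79 TPM with Ad_Cre and 9.65 TPM with Ad_Cont in Cont (adjusted p = 0.494); whether the 3′ reads lie in the floxed part is not given. Markers of other cells moved with deprivation in the Ad_Cont hepatocytes, cholangiocyte markers summing to 264 to 599.8 TPM in B2_minus and 845 to 940.5 TPM in Cont (4 to 5 and 5 to 6 of 8 at 1 TPM or more), and stellate markers to 12.8 to 24.5 TPM in B2_minus and 35.0 to 41.3 TPM in Cont (5 of 8 in both). The 6 hepatocyte markers listed summed to 8263 to 9333 TPM in B2_minus and 9626 to 9973 TPM in Cont. Their part in the Acadm and Acadsb differences was not tested. Of the partner lists, 2 of 18 beta-oxidation genes rose, Acot2 (0.64) and Acaa2 (0.29), along with the fatty acid sensor Ppara (0.50). Of all 12155 genes tested with Ad_Cont, 525 rose and 664 fell.

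The liver columns carry archive run names, and their folder lacks the trimming mark of the other tables, so the headers do not show that they came from the 3′ kit the labels name. In mouse liver, Etfdh rose in B2_minus, the only one of the 10 to pass, where 3.22% of all genes were called. It had 349.8, 373, 324 and 306 TPM in the 4 B2_minus columns, against 226, 244, 231 and 245 TPM in Control, with no overlap (0.51 ± 0.11, adjusted p = 0.0338). The sign was opposite to that in HepG2, which was not tested, and the call was lost with voom (0.42, adjusted p = 0.0645), with no filter (adjusted p = 0.0554) and without any 1 of B2_minus columns 1, 2 or 3 or Control columns 1, 3 or 4 (adjusted p 0.0555 to 0.133). Acadsb had 39.6, 34.2, 30.3 and 35.0 TPM in B2_minus and 44.6, 42.7, 47.5 and 40.2 TPM in Control, and Ivd 78.2, 76.6, 76.7 and 82.4 TPM in B2_minus and 86.4, 100.5, 83.9 and 95.1 TPM in Control. Neither pair of groups overlapped, and neither passed (-0.33 with adjusted p = 0.113, and -0.22 with adjusted p = 0.23). Acadm, which rose in the hepatocytes, had 524, 578, 530.0 and 433 TPM in B2_minus and 436, 446, 468 and 488 TPM in Control and did not pass (0.16 ± 0.12, 95% interval -0.11 to 0.43). The median over the 10 was -0.08 and over all genes 0.14. Of 18 beta-oxidation partners 1 rose, Cpt1b (0.73), a carnitine palmitoyltransferase. Endothelial markers summed to 40.1 to 48.8 TPM in B2_minus and 24.5 to 44.5 TPM in Control (7 markers at 1 TPM or more in both), and their part was not tested.

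**Figure D5:**
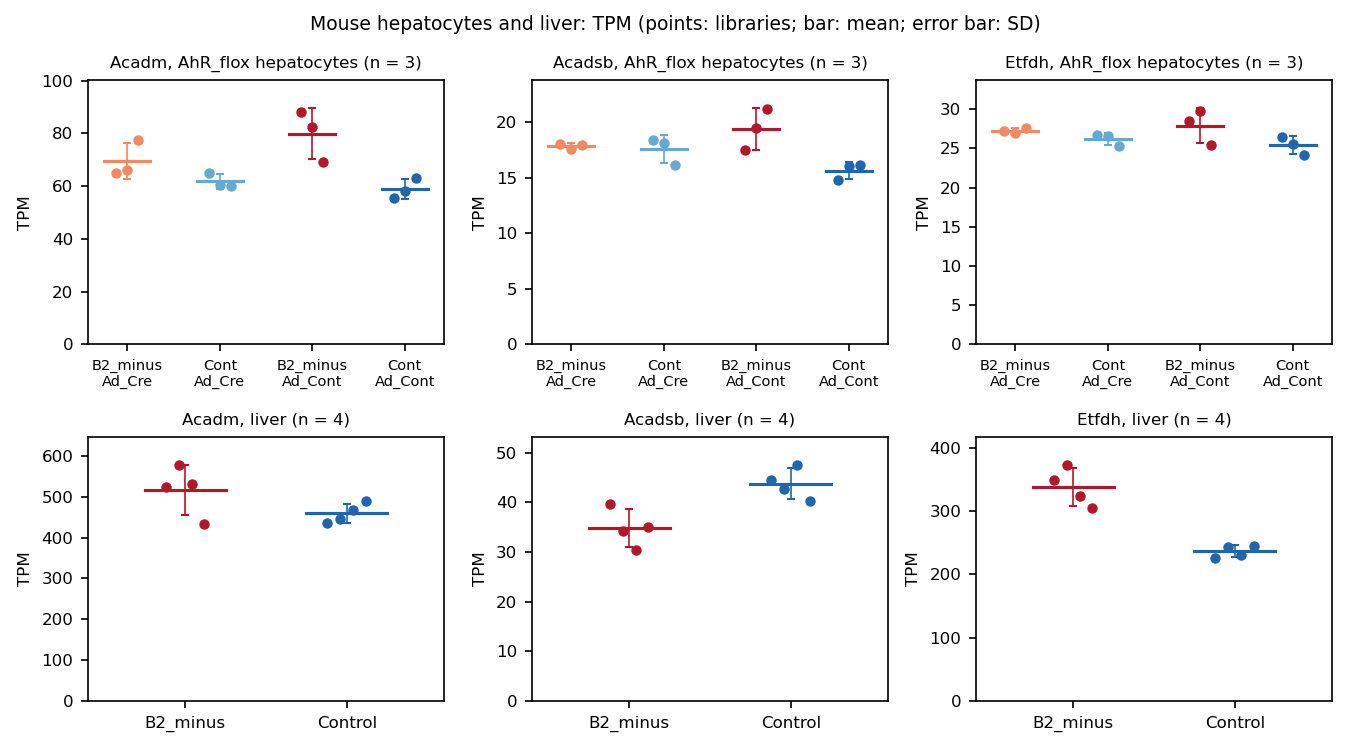
TPM (y axis) of Acadm, Acadsb and Etfdh in mouse hepatocytes with Ad_Cre and Ad_Cont and in mouse liver, B2_minus left of its control, with each library as a point, the mean as a bar and the SD as an error bar (n = 3 in hepatocytes, n = 4 in liver). Acadm is higher in B2_minus hepatocytes with Ad_Cont, and Etfdh is higher in B2_minus liver.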

How the data were processed

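Libraries were made with a QuantSeq 3′ kit, per the labels' protocols, though the headers of the liver columns do not show it. The authors deposited TPM in all 8 tables, made by HOMER per the file headers, which assigns each symbol a single transcript and its length. The submitters' processing notes name STAR, Bowtie2, HOMER, mm10 and hg38 without roles. Because 3′ reads do not scale with the transcript length that TPM divides by, and the transcript assigned to a symbol differs between tables, levels were compared neither between genes nor between tables.

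Depth was recovered from TPM times length, whose low values were whole reads in 100% of those checked (within 0.1, genes of 300 to 3000 bases, up to 20 reads). No replicate pair agreed within sampling noise (chi-square per gene at least 2.01). Each table was fitted on its own with limma 3.58.1 (R 4.3.3) on log2(TPM + 1), with 1 mean per group and robust, trended eBayes, keeping genes that reached 1 TPM in 3 libraries (in liver, 5). Fold changes on this scale understate those of low genes. Tests were two-sided, with Benjamini-Hochberg adjustment over all genes of a comparison and a threshold of 0.05, in 34 comparisons. The alternatives were a pseudocount of 0.1, no filter, quantile normalization, limma's voom on recovered reads, each library left out, and the replicate number as a block. The script was tested on simulated data. The members and lists were chosen with earlier results of these data known; the text names all 10 members, and from each list at most the 3 highest and 3 lowest fold changes that passed. Figures were drawn with matplotlib 3.10.9.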

Additional observations from a re-analysis of the deposited data

Results flagged for a closer look

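The deprivation or Kyn effect differed between conditions by an interaction test (limma, adjusted p under 0.05) in 16 member results. Each comparison tested all 10 members, and the share of all genes called is given as a percentage. Between day 12 and day 3 in HepG2 (37.7%) these were ACAD9 (0.89), IVD (0.80), ETFA (0.51), ETFB (0.47) and ETFDH (-0.60). Between AhRinh and no inhibitor (22.5%) they were GCDH (0.76), ACAD9 (0.65), ACADSB (0.44) and ACADVL (-0.35), where inhibitor and header date cannot be told apart. Between IDO_TDOinh and no inhibitor (53.7%) they were IVD (-0.69), ETFA (-0.54), GCDH (-0.55) and ETFDH (0.45). Between AhR_gRNA and Cont_gRNA (14.4%) they were ACADVL (0.37) and ETFB (-0.28). For Kyn, between AhRinh and no inhibitor (8.94%), it was ACADSB (0.72). Between Ad_Cre and Ad_Cont in mouse hepatocytes (0.247%) there were none. Leaving out 1 library could end calls of ETFDH by day, ACADSB and ACADVL by AhRinh, GCDH and ETFDH by IDO_TDOinh, and ACADVL by guide.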

How the results depend on the processing

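Over the 340 member results, a pseudocount of 0.1 changed no call. Leaving out the filter ended 16 calls. Quantile normalization ended 17, added 19 and turned the sign of 4 results called before or after it: ACADSB in Cont at day 12 against day 3 (0.16), and ACADVL in B2_minus against Cont with AhRinh (-0.18), in the IDO_TDOinh table without inhibitor (-0.10) and with IDO_TDOinh against none in B2_minus (0.23). Voom on recovered reads ended 8 and added 17. The cause was not tested. Leaving out 1 library turned no sign of a called result.

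Counts of members called moved by more than 1.5 times as follows. At day 3 they became 1 with quantile normalization and 1 with voom, against 0. Without the filter they became 5 for deprivation in the IDO_TDOinh table, 2 for its interaction, 1 for the guide interaction, 1 for AhRinh with Kyn, 1 in hepatocytes with Ad_Cont and 0 in liver. With voom they became 6 for deprivation with Cont_gRNA, 4 for the guide interaction, 1 for AhR_gRNA in B2_minus and 0 in liver. With quantile normalization deprivation with AhR_gRNA gave 5.

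Leaving out 1 library gave these ranges of members called: HepG2 day 6, 1 to 3; day 9, 2 to 3; day 12, 7 to 9; day 12 against day 3 interaction, 4 to 6; Caco2, 4 to 6. Deprivation with AhRinh gave 5 to 8 and its interaction 3 to 5, deprivation under the IDO_TDOinh design without inhibitor 4 to 8 and its interaction 2 to 5, and the guide interaction 1 to 3. AhR_gRNA in B2_minus gave 0 to 1, each Kyn comparison with AhRinh 1 to 2, hepatocytes with Ad_Cont 1 to 2, and liver 0 to 1.

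No pairing by replicate number was detected: in 0 of 27 comparisons did every same-numbered pair correlate above 0.1 (same numbers -0.11 to 0.19, different numbers -0.20 to 0.17). This check cannot exclude weak pairing. With the replicate block, of 330 results 4 calls were lost and 1 was gained (ETFDH in the IDO_TDOinh table, adjusted p = 0.0274), and the counts became 1 for the guide interaction and 1 in hepatocytes with Ad_Cont. No paired analysis was possible in liver because its columns carry no animal number. Read counts were lowest for GCDH and ETFDH in Caco2 and ACAD9 in the Kyn table (20 to 58 reads).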

Other observations

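At the day that both lines share, day 9, the log2 fold change of B2_minus over Cont was 0.33 in HepG2 and -0.67 in Caco2 for IVD, 0.18 and -0.64 for ETFB, and -0.06 and -0.84 for ACADM. The ETFB and ACADM values of HepG2 at day 9 did not pass (limma, adjusted p = 0.0515 and 0.442). The lines were deposited in separate tables, and the difference between them was not tested.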
